A study of Mus musculus with 12 samples.

Results

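The genes described here encode 9 complement proteins and receptors other than the C1q chains: the proteases C1ra and C1s1, the components C4b, C2 and C3, properdin (Cfp), the C1 inhibitor (Serping1) and the anaphylatoxin receptors C3ar1 and C5ar1. They were taken by symbol from a table of 55421 mouse genes, and all 9 passed the filter that kept 17702 genes for testing. RNA of ventricular tissue from wild-type mice was sequenced, with 4 libraries in each of 3 groups. Saline mice were given saline with vehicle. AngII mice were given vehicle and angiotensin II, a vasoconstrictor hormone under which the heart enlarges, from an osmotic minipump placed under the skin on day 0. AngII_FI mice were given angiotensin II in the same way together with Forsythoside I (FI), a plant glycoside, injected into the peritoneum at 50 mg/kg every other day from the day before the pump until day 14. No group received FI with saline, so FI was measured only on top of angiotensin II. Neither the dose of angiotensin II nor the age, sex or strain of the mice is stated in the labels, and no label ties a library to an animal beyond the number per group, so p-values measure the spread between these libraries.

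Complement is a cascade of plasma proteins in which an initiating complex, such as C1, cleaves C4 and C2 to form an enzyme that cleaves C3. Fragments of C3 mark surfaces and small fragments of C3 and C5 act on receptors of myeloid cells, while inhibitors such as the C1 inhibitor hold the proteases in check. The liver makes most of the circulating proteins, and macrophages, fibroblasts and endothelial cells in tissues make part of the components locally.

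One library had to be set apart before any comparison. Levels are given as CPM, a gene's counts relative to all counts of its library. The sum over 15 hepatocyte markers was 24454 CPM in AngII_FI 3 and 2.20 to 46.8 CPM in the other 11 libraries. Since the liver is the main source of plasma complement, the comparisons used 11 libraries, with 3 in the AngII_FI group, and the values of AngII_FI 3 are given apart. The ventricular markers Myl2 and Myl3 summed to 7045 to 9173 CPM in the 11 libraries and 3 atrial markers to 0.816 to 2.61 CPM. Totals ran from 68874852 to 80624227 counts, so that 3 counts correspond to 0.0372 to 0.0436 CPM, and this limit covers counting error only. Within the 11 libraries the hepatocyte sum was highest in AngII 3, at 46.8 CPM, and at most 8.59 CPM in the other 10.

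The sequences below are shown because they bear on which gene the reads belong to and on the member that changed most. Mouse C1ra has a tandem copy, C1rb, and over 2121 aligned coding bases the 2 genes were 98.02% identical, with an identical run of 757 bases. Their first 60 coding bases (GENCODE M21, GRCm38) differ at the 1 base written in capitals.
C1ra: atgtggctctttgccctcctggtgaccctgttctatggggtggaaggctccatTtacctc
C1rb: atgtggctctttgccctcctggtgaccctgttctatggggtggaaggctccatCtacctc
A read that falls within such an identical stretch cannot be assigned to 1 of the 2 genes by its letters. C1s1 and C1s2 were 95.68% identical over their coding bases, and the coding sequence of C4b was 96.14% identical to the C4a transcript. The labels do not state how reads matching several places were handled, so the split within these 3 pairs is uncertain.

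For the promoters, RefSeq (GRCm38.p6) gave a window for 6 of the 9 members, with 7 start sites between them. The 250 bases before the start are printed for C3ar1, the member with the largest fold change, and for C3, whose protein is the precursor of its ligand; both genes lie on the minus strand and the sequences run 5′ to 3′.
C3ar1, chr6:122856158-122856407: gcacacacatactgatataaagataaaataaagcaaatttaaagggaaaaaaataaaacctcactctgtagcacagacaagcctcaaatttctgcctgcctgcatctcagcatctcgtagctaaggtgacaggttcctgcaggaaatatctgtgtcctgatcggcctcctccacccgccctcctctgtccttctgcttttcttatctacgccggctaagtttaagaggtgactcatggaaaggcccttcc
C3, chr17:57228137-57228386: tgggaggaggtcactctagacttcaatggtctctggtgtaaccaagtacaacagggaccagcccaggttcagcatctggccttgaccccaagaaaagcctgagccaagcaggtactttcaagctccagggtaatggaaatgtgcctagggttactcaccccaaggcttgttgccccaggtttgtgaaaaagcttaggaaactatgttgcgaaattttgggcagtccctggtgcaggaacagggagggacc
Neither holds the letters TTCNNNGAA, the interferon gamma-activated site, whose form is the same on both strands. The motif was in 0 of 7 such windows of the members and in 7.02% of the 32851 windows searched. With the 50 bases after the start included it was in 1 of 7, that of C1ra, against 8.3% of all windows.

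In the comparison of AngII with saline, which asks what angiotensin II infusion changes in the ventricle, 4 of the 9 genes rose and 0 fell: C3ar1, C4b, C5ar1 and Serping1. The rises were between 1.3-fold (Serping1) and 1.8-fold (C3ar1). Among all 17702 genes tested, 2.49% were called higher and 1.37% lower by edgeR's quasi-likelihood test at an adjusted p under 0.05. Fold changes of all 9 members lay above 0, with a median log2 fold change of 0.49, against 0.00174 over all genes tested. In bulk tissue, more cells of a type and more RNA per cell cannot be told apart.

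Among the proteases that start the classical pathway, C1ra (chromosome 6, 124512405 to 124523443) encodes the C1r protease, which activates C1s. It measured 10.2, 17.9, 12.5 and 9.97 CPM in the 4 saline libraries, 19.95, 17.3, 16.3 and 18.0 CPM with angiotensin II, and 13.5, 15.8 and 15.5 CPM with angiotensin II and FI. Saline 2 lay inside the AngII range and the other 3 saline libraries below it. AngII against saline gave a log2 fold change of 0.48 ± 0.16 (SE), with an adjusted p of 0.119 by edgeR's quasi-likelihood test. Without saline 2 it was 0.70 and passed the threshold (adjusted p = 0.0100, edgeR). With saline 2 kept, DESeq2 gave an adjusted p of 0.0490, so the call depends on 1 library and on the method.

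C1s1 (chromosome 6, 124530345 to 124542359) encodes C1s, the protease of the C1 complex that cleaves C4 and C2. Its values were 29.6, 40.2, 27.0 and 26.2 CPM with saline, 41.3, 37.1, 29.3 and 39.2 CPM with angiotensin II, and 28.7, 33.2 and 26.4 CPM with FI added. All 3 groups overlapped, with saline 2 again the highest of its group. AngII exceeded saline by 0.23 on the log2 scale, with a 95% interval of -0.084 to 0.54 (adjusted p = 0.440, edgeR).

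C4b (chromosome 17, 34728380 to 34743882), one of the mouse C4 genes, encodes the component that C1s cleaves. It rose from 6.87, 13.3, 11.3 and 13.6 CPM with saline to 20.04, 22.8, 15.4 and 19.7 CPM with angiotensin II. Every AngII library lay above every saline library, and saline 1 was the lowest of the 11. With FI added the values were 17.0, 20.6 and 13.8 CPM, again all above the saline libraries. The log2 fold change of AngII against saline was 0.77 ± 0.19 (edgeR adjusted p = 0.0426). It stayed between 0.61 and 0.87 when each library was left out in turn, but the adjusted p then ran from 0.0425 to 0.115. The call was lost in 8 of the 11 cases, those without saline 1, 3 or 4, any AngII library or AngII_FI 1.

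C2 (chromosome 17, 34862604 to 34898265), the protease that joins C4b to form the enzyme that cleaves C3, was the least abundant member. It had 0.945, 1.02, 0.845 and 0.566 CPM with saline, 1.75, 0.987, 1.41 and 0.893 CPM with angiotensin II, and 1.13, 0.637 and 0.980 CPM with FI added. The groups overlapped and the interval was the widest of the 9. In AngII against saline its log2 fold change was 0.55, with a 95% interval of -0.11 to 1.21 (edgeR adjusted p = 0.372). Its exons share 1656 bases on the same strand with Gm20547, a gene model with a mean of 2.5 counts per library. They share 161 bases with Zbtb12 on the other strand. Reads in the Gm20547 stretch cannot be parted by strand, and those in the Zbtb12 stretch only with the strand setting. So part of the C2 counts is uncertain.

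C3 (chromosome 17, 57203970 to 57228136), the component on which all routes of activation meet, showed no difference past the threshold. It measured 52.8, 96.9, 76.5 and 87.9 CPM with saline, 91.5, 104, 76.7 and 84.4 CPM with angiotensin II, and 71.1, 94.7 and 82.6 CPM with FI added. Saline 1 stood below all others, and the remaining 10 libraries shared the range of 71.1 to 104 CPM. For C3 the log2 fold change of AngII against saline was 0.16, with a 95% interval of -0.17 to 0.50 (edgeR adjusted p = 0.634). Cfp (chromosome X, 20925454 to 20931555) encodes properdin, which stabilises the C3-cleaving enzyme of the alternative pathway. It had 3.31, 4.01, 5.01 and 3.52 CPM with saline, 5.19, 7.25, 4.94 and 6.81 CPM with angiotensin II, and 5.17, 5.55 and 6.62 CPM with FI added. AngII 3 lay just under saline 3, and otherwise the AngII libraries were above the saline libraries. Its log2 fold change was 0.59 ± 0.17 and missed the threshold (edgeR adjusted p = 0.0687); DESeq2 gave an adjusted p of 0.0217.

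Serping1 (chromosome 2, 84765387 to 84775444), the inhibitor of C1r and C1s, was the most abundant member. It rose from 85.8, 114, 109 and 92.7 CPM with saline to 143, 135, 117 and 127 CPM with angiotensin II. The groups did not overlap, although AngII 3 exceeded saline 2 by little. Values with FI added were 109, 119.7 and 109 CPM, of which AngII_FI 2 lay in the AngII range and the other two in the saline range. This rise of 0.35 ± 0.08 on the log2 scale (edgeR adjusted p = 0.0390) was the smallest of the 4. With single libraries left out it was 0.31 to 0.42 and the adjusted p ran from 0.0237 to 0.101. The call was lost without saline 1, 3 or 4, any AngII library or AngII_FI 4.

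C3ar1 (chromosome 6, 122847138 to 122856161) encodes the receptor for the fragment C3a and had the largest fold change of the 9. It measured 4.98, 5.10, 4.98 and 3.92 CPM with saline and 7.42, 10.6, 8.34 and 8.40 CPM with angiotensin II. With FI added it had 10.4, 8.55 and 7.89 CPM, so that all 7 libraries from mice given angiotensin II lay above all 4 saline libraries. In AngII against saline it rose by 0.85 ± 0.15 on the log2 scale (edgeR adjusted p = 0.0119). It was called in all 22 alternative analyses, with log2 fold changes of 0.75 to 0.94 and adjusted p from 3.59e-05 to 0.0378.

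C5ar1 (chromosome 7, 16246743 to 16259540) encodes the receptor for C5a, the fragment that attracts and activates myeloid cells. Its saline values were close together, at 5.67, 5.14, 5.41 and 5.50 CPM. It rose to 7.95, 6.46, 8.34 and 8.17 CPM with angiotensin II and stood at 5.92, 6.27 and 5.72 CPM with FI added. As CPM, the 3 groups did not overlap, with the AngII_FI libraries between the other groups and close to saline. The log2 fold change of AngII against saline was 0.49 ± 0.12 (edgeR adjusted p = 0.0428). Leaving out single libraries gave 0.42 to 0.57 with adjusted p from 0.0399 to 0.119, and the call held in 1 of 11 cases, that without AngII 2.

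**Figure D1:**
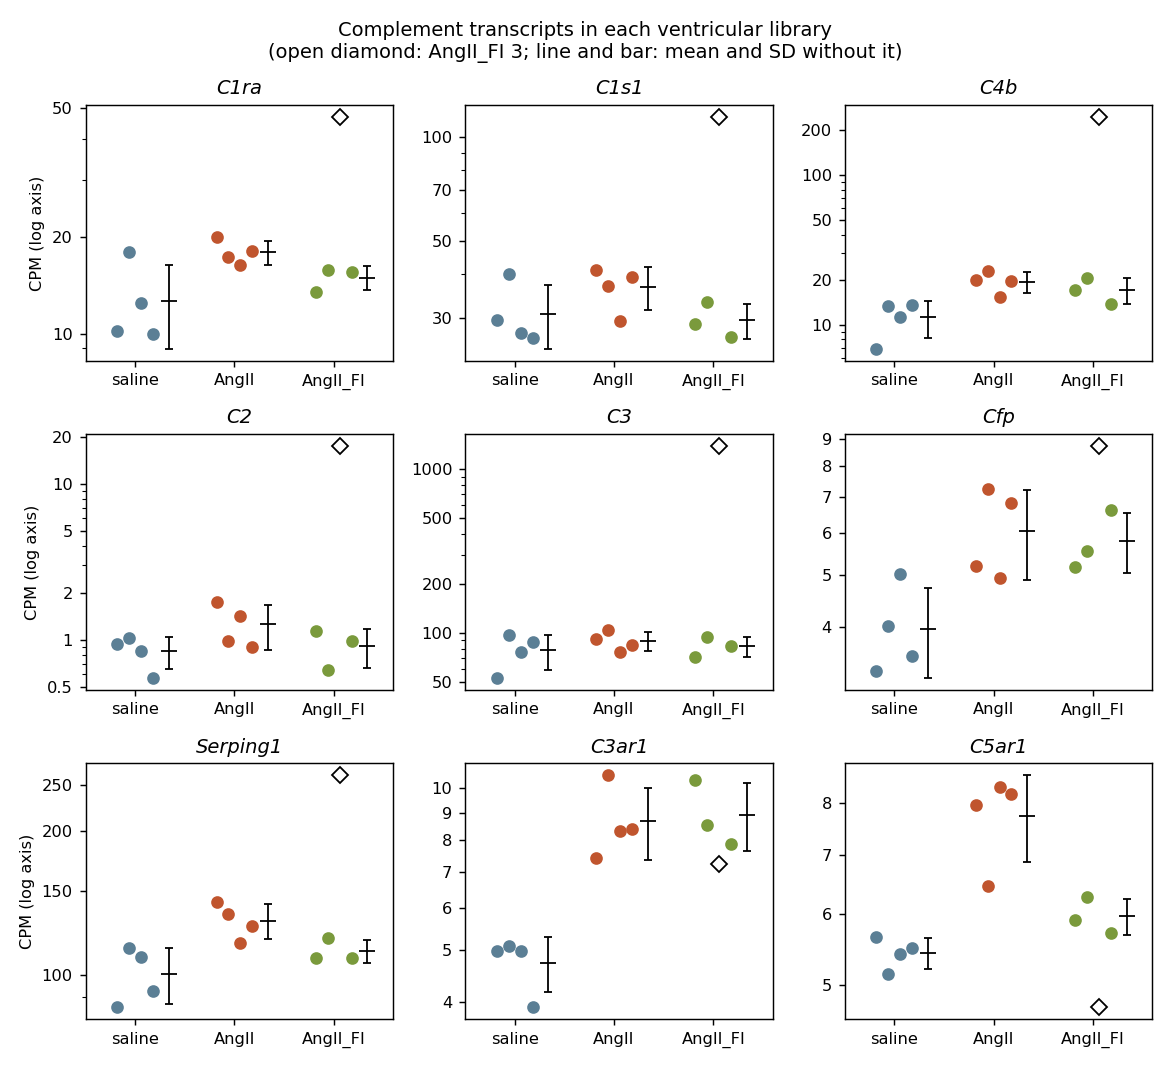
Level of each of the 9 complement genes in the 12 libraries, in CPM on a log axis that differs between panels. Filled circles are libraries in the comparisons, the open diamond is AngII_FI 3, and the line and bar are the mean and SD without it (n = 4, 4 and 3). C3ar1, C4b, C5ar1 and Serping1 show no overlap between saline and AngII, and AngII_FI 3 stands above every other library for all genes but C3ar1 and C5ar1.

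As a count of separated groups, 4 of the 9 members had every AngII library above every saline library, against 7.63% of all genes tested, and 0 of the 9 had the reverse, against 4.5% (6.12% with the scaling that follows). With CPM scaled by the trimmed mean of M values (TMM) Cfp joined them, which made 5 of 9 against 7.12%. The number of members called depended on the analysis. It was 4 with other scaling by median ratios, with limma-voom and with a filter at 1 CPM, 6 with DESeq2, 2 with library totals alone, and 1 (C3ar1) with all 12 libraries, with no filter or with only the AngII and saline libraries in the fit. Leaving out single libraries gave 1 to 4, and 1 (C3ar1) without saline 1, 3 or 4 or without AngII 1, 3 or 4. AngII 3 had the highest hepatocyte sum of the 11. Without it the log2 fold changes of C4b, Serping1 and C5ar1 were 0.85, 0.37 and 0.42. The fold changes of all 9 members stayed above 0 in every one of these analyses.

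**Figure D2:**
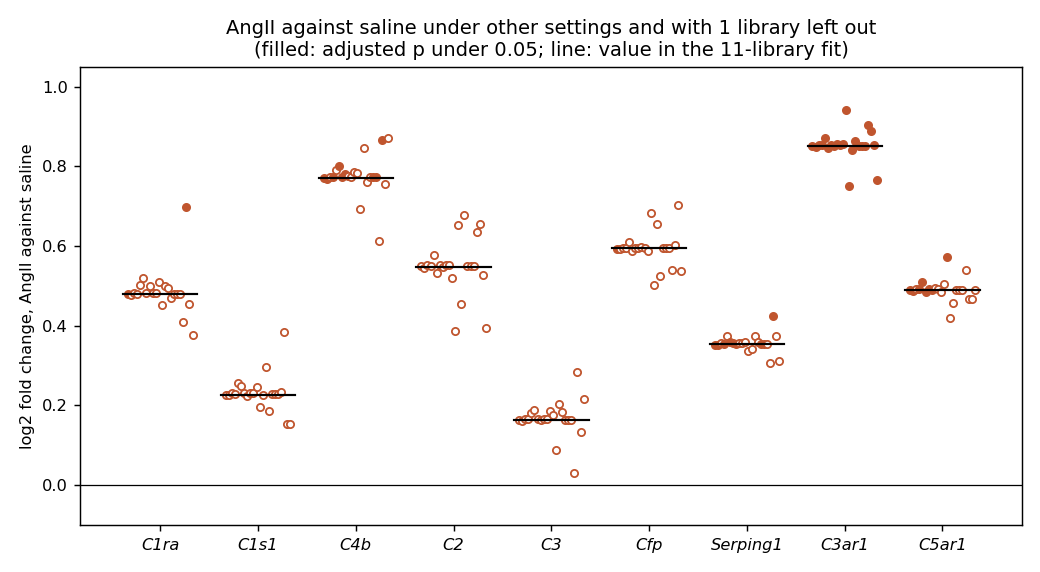
Log2 fold change of AngII against saline for each member (vertical axis) under 22 alternative analyses, 11 of which leave out 1 library each. Filled points passed an adjusted p of 0.05 and the black line is the value in the fit of 11 libraries. C3ar1 is filled throughout between 0.75 and 0.94, C4b, C5ar1 and Serping1 are filled in part, and no point lies below 0.

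Markers of other cell types were summed in the same libraries. A list of 10 macrophage markers without complement genes summed to 253 to 366 CPM with saline, 406 to 475 CPM with angiotensin II and 393 to 418 CPM with FI added. All 10 had a log2 fold change above 0 in AngII against saline, with a median of 0.55, and 3 rose: Cd68, Mrc1 and Ctss, by 0.68, 0.42 and 0.67 on the log2 scale (edgeR adjusted p = 0.0301, 0.0224 and 0.0234). Of 7 fibroblast markers, 4 rose (Lum, Dpt, Col1a1 and Col1a2), and their sum went from 760 to 969 CPM with saline to 1023 to 1184 CPM with angiotensin II and 890 to 978 CPM with FI added. Endothelial markers summed to 430 to 714, 619 to 848 and 490 to 581 CPM in the same order of groups, with 0 of 6 called, and 6 neutrophil markers to 3.49 to 5.22, 2.26 to 4.73 and 1.91 to 2.51 CPM. All 6 cardiomyocyte markers had a log2 fold change below 0 in AngII against saline, with a median of -0.21 and none called, and their sums were 24909 to 35497, 24454 to 27081 and 24072 to 31999 CPM. Of 5 markers of pericytes and smooth muscle, 1 fell (Abcc9, -0.41, edgeR adjusted p = 0.0486), and the sums were 858 to 990.4, 935 to 1101 and 790 to 935 CPM. Of 5 mesothelial markers, 1 rose (Upk3b, by 1.91, edgeR adjusted p = 0.0312), the median being 1.45 and the highest sums 4.34, 5.13 and 3.82 CPM. All 7 tested hepatocyte markers were above 0, with a median of 1.45 and none called, at sums of 3.19 to 8.59 CPM with saline and 2.20 to 46.8 CPM with angiotensin II, the highest being AngII 3. The part of these cell types in the rise of the complement genes was not tested. The sum of 5 adipocyte markers was at most 0.647 CPM in any library.

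Under FI, the question is whether the complement genes differ between mice given angiotensin II with and without the compound. In AngII_FI against AngII, 0 of the 9 genes passed the threshold, where 0% of all genes were called higher and 0.00565% lower, 1 gene by edgeR. At an unadjusted p under 0.05, 596 genes were higher (3.37%) and 808 lower (4.56%) by the same test, and 0 members were among them. DESeq2 called 10 genes higher and 19 lower and limma-voom 0 lower, with 0 members in each. The 9 log2 fold changes had a median of -0.11, with 7 below 0, against a median of -0.00274 and 50.4% below 0 over all genes tested.

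C5ar1 came nearest to a difference, with a log2 fold change of -0.28 ± 0.13 in AngII_FI against AngII, a 95% interval of -0.56 to 0.00113, an unadjusted p of 0.0508 and an adjusted p of 0.630 by edgeR. All 3 AngII_FI libraries were below all 4 AngII libraries as CPM, as were those of C1ra, which makes 2 of 9 members against 9.89% of all genes; 0 of 9 were separated upwards, against 1.32% of genes (4.03% when scaled by TMM). On the TMM scale only C1ra stayed separated, 1 of 9 against 5.49% of genes. TMM factors of the AngII_FI libraries were 0.956 to 0.960, against 0.963 to 1.08 in the AngII libraries, and scaling to library totals alone moved the median of all genes by -0.0972 in this comparison. C1ra had a log2 fold change of -0.16, with an interval of -0.54 to 0.21 (edgeR adjusted p = 0.838). Adding the counts of C1rb to those of C1ra brought this to -0.060. The groups then overlapped, with 1250 summed counts in AngII_FI 2 and 1154 in AngII 3, at totals of 70672324 and 70897856. So the separation of C1ra depends on how reads were split between these copies.

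For the other members the intervals of AngII_FI against AngII show what these libraries can bound. C3ar1 had 0.13, with a 95% interval of -0.21 to 0.48, and Cfp had 0.031, with -0.35 to 0.42. C3, at -0.0063, ranged from -0.37 to 0.35 and C4b, at -0.084, from -0.52 to 0.36. The narrowest interval was that of Serping1, at -0.11, from -0.31 to 0.084. C1s1 stood at -0.22, with -0.56 to 0.12, and C2 at -0.36, with -1.08 to 0.36. EdgeR adjusted p-values for these 7 genes ran from 0.743 (C1s1) to 0.995 (C3). The intervals are for each gene alone, whereas calls use the adjusted p over all genes tested. With 3 and 4 libraries, differences smaller than the intervals, and also larger ones, could therefore go uncalled.

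AngII_FI against saline shares its saline libraries with the first comparison and its AngII_FI libraries with the second. C3ar1 rose by 0.99 ± 0.16 on the log2 scale (edgeR adjusted p = 0.0146) and was the 1 member of 9 that passed, where 0.932% of all genes were called higher and 0.311% lower. Without AngII_FI 1 it measured 0.87 and did not pass (edgeR adjusted p = 0.0687); with AngII_FI 3 included it was 0.89 and passed (adjusted p = 0.0312, edgeR). C4b had 0.69 ± 0.20 and Cfp 0.63 ± 0.18, and both missed the threshold (edgeR adjusted p = 0.118 and 0.111). C5ar1 had 0.21, with a 95% interval of -0.072 to 0.49, and Serping1 had 0.24, with 0.043 to 0.44 (edgeR adjusted p = 0.476 and 0.220). C1ra, C3, C2 and C1s1 stood at 0.32, 0.16, 0.19 and 0.0083, with adjusted p from 0.407 to 0.991 by edgeR.

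In that comparison C4b, C3ar1, C5ar1 and Cfp had every AngII_FI library above every saline library, 4 of 9 against 4.72% of genes, and with TMM scaling Serping1 made 5 of 9, against 7.78%. The reverse held for 0 of 9, against 11% of genes as CPM and 6.87% with TMM scaling. With FI added C3ar1 stayed at its AngII level. C5ar1 lay between its saline and AngII levels, with log2 fold changes of 0.21 against saline and -0.28 against AngII, neither past the threshold. The difference between C3ar1 and C5ar1 was not tested.

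**Figure D3:**
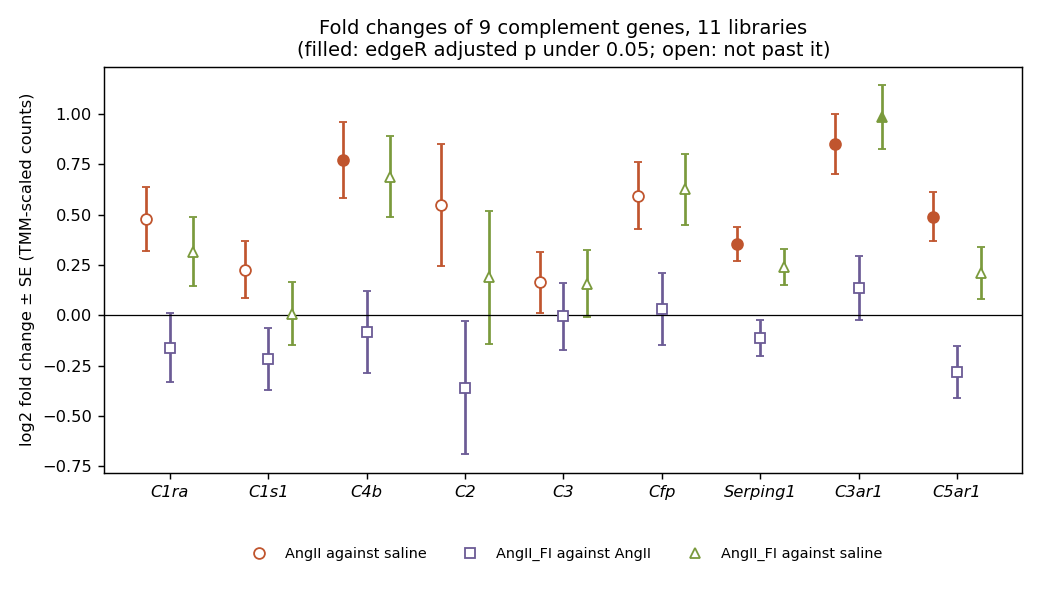
Log2 fold change with its standard error for the 9 members in the 3 comparisons (vertical axis, TMM-scaled counts of 11 libraries). Filled symbols passed an edgeR adjusted p of 0.05. AngII against saline has 4 filled symbols, AngII_FI against saline 1 (C3ar1 at 0.99), and AngII_FI against AngII none.

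Levels between genes were compared as mean CPM per kilobase of exon. In saline the order was Serping1 (43.2 ± 5.78, SD), C3 (15.3 ± 3.71), C1s1 (9.83 ± 2.06), C1ra (4.24 ± 1.24), Cfp (2.28 ± 0.44), C5ar1 (2.11 ± 0.0851), C4b (1.98 ± 0.54), C3ar1 (1.10 ± 0.13) and C2 (0.218 ± 0.0516). The ranges of mean ± SD of C3 and C1s1 overlapped, as did those of Cfp, C5ar1 and C4b, whereas those of the other neighbours did not. The fluid-phase inhibitor of the C1 proteases was thus the leading transcript, and the receptors stood low in the order. The places of C1ra, C1s1, C4b and C2 are less certain. These genes share sequence or exons with other genes, and how such reads were counted is not stated. With angiotensin II the first 5 and the last 2 places were held by the same genes, and C4b (3.42 ± 0.54) stood before C5ar1 (3.01 ± 0.34); the ranges of Cfp, C4b and C5ar1 overlapped and those of the other neighbours did not. With FI added the order was that of AngII, with C4b, C5ar1 and C3ar1 at 3.01 ± 0.60, 2.32 ± 0.11 and 2.08 ± 0.30. There C4b overlapped with Cfp and C5ar1, and C5ar1 with C3ar1.

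Over the 11 libraries, the Pearson correlation of log2 TMM-scaled CPM was positive in 35 of the 36 pairs of members, the exception being C2 and C3 at -0.18. After each group's mean was taken out it was positive in 23 pairs and negative in the rest. The closest pairs within groups were C3 with C4b (0.86), C1ra with Serping1 (0.85) and C1ra with C1s1 (0.74). Saline 2 was above its group mean for C1ra, C1s1, C4b, C3 and Serping1, by 0.54, 0.41, 0.29, 0.34 and 0.19 on the log2 scale. Saline 1 was below it for C4b and C3, by 0.58 and 0.46. The within-group correlation of C5ar1 was negative with 7 of the other 8 members, among them C3 (-0.53), Cfp (-0.51) and C3ar1 (-0.18), and C2 had -0.55 with C4b. These values describe 11 libraries that share group, depth and scaling, and carry no test.

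**Figure D4:**
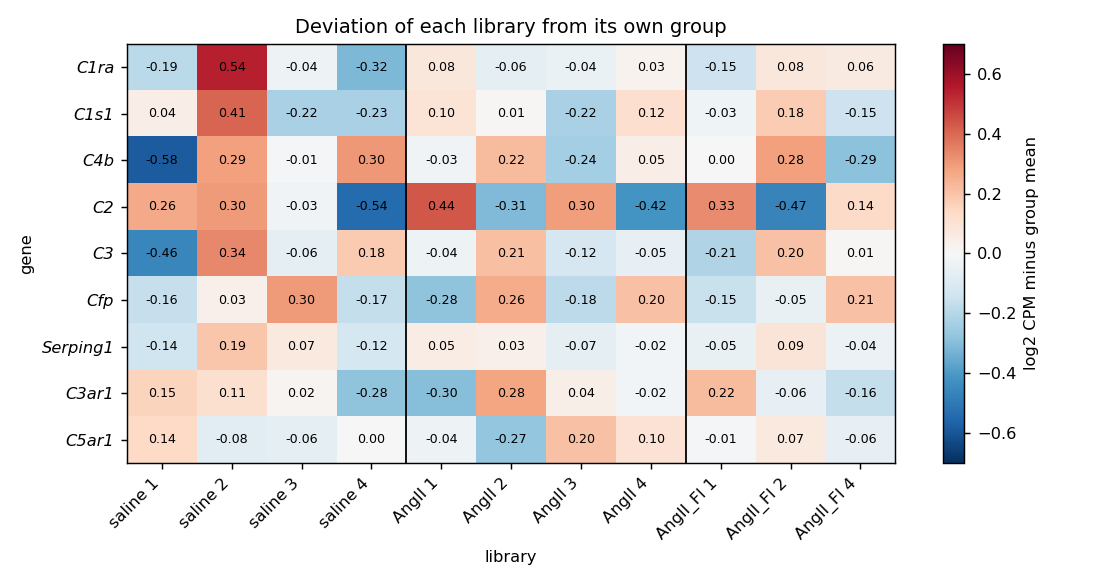
Difference of each library from the mean of its own group for the 9 members (rows) in the 11 libraries (columns), in log2 CPM scaled by TMM; red is above and blue below the group mean, and vertical lines part the groups. C3 and C4b move together in saline 1 and saline 2, while C3ar1 and C5ar1 do not share that pattern.

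The 3 genes whose pattern over the 11 libraries was most like that of each called member were found by the same correlation. For C3ar1 they were Gm45670, an antisense RNA by annotation, Rnase4, a secreted ribonuclease, and Fibin, with Pearson's r of 0.98, 0.96 and 0.96 and Spearman's rho of 0.92, 0.88 and 0.87. For C5ar1, Dpysl3 and Arf3 were among them (r = 0.90 and 0.90). C4b was nearest to Ltbp3, which binds latent TGF-beta, Gdf10 and the matrix glycoprotein gene Tnxb (r = 0.93, 0.92 and 0.92), and Serping1 to Aak1, Myof and Col5a1, a collagen chain (r = 0.96, 0.94 and 0.93). Such values are the highest of 17702 genes and are a description only.

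Beyond the members, 46 other genes of the pathway were examined and 32 were tested. In AngII against saline 3 of these rose and 0 fell, all 3 being C1q chains. C1qa had 43.6 ± 5.00 CPM with saline, 67.1 ± 4.53 with angiotensin II and 62.4 ± 7.85 with FI added (mean ± SD, n = 4, 4 and 3), and C1qb had 46.3 ± 4.92, 79.3 ± 3.49 and 73.1 ± 5.64 CPM. C1qc had 37.8 ± 2.37, 57.8 ± 7.20 and 56.6 ± 3.02 CPM. These chains form the recognition part of C1, which carries C1r and C1s. Their log2 fold changes in AngII against saline were 0.60, 0.76 and 0.59 (edgeR adjusted p = 0.00818, 0.00137 and 0.00568). In AngII_FI against AngII they were -0.0070, -0.025 and 0.067, and none passed. In AngII_FI against saline all 3 chains were called, at 0.59, 0.74 and 0.66 (edgeR adjusted p = 0.0190, 0.00389 and 0.00769), and C1qa lost its call when library totals alone set the scale (adjusted p = 0.0530, edgeR), with only these 2 groups in the fit (0.0591), or without saline 1 or AngII_FI 4.

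The remaining lists held no gene that passed in any of the 3 comparisons, and their 2 genes with the smallest p in AngII against saline are given with log2 fold change and edgeR adjusted p. In the lectin pathway, 3 of 8 genes were tested; Masp1, a serine protease of that route, had 0.39 (0.137) and the ficolin gene Fcna 0.27 (0.645). In the alternative pathway Cfb, the protease of its C3-cleaving enzyme, had 0.75 ± 0.22 (0.0794). It measured 1.36, 1.57, 2.26 and 2.33 CPM with saline and 4.21, 2.42, 3.53 and 2.65 CPM with angiotensin II. Cfd had 1.30 ± 1.08 (0.581), at low mean levels of 0.104 CPM with saline and 0.258 CPM with angiotensin II. Every AngII library of Cfb lay above every saline library, by a small margin. Of the 32 tested pathway genes outside the members, 6 were separated upwards in this way and 1 downwards. Over all genes tested the shares were 7.63% and 4.5%. With TMM scaling the counts were 4 and 2 of 32, against 7.12% and 6.12%. The exons of Cfb share 2246 bases on the same strand with Gm20547, so part of its counts is uncertain too.

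Among soluble regulators, Cpn2, a carboxypeptidase N subunit, had a log2 fold change of -0.93 (0.245), with every AngII library below every saline library as CPM. Among membrane regulators, Cd59a, which blocks the membrane attack complex, had -0.61 (0.155), with saline 4 at 67.0 CPM against 28.5 to 35.0 CPM in the other saline libraries, and Cd55, which speeds the decay of the C3-cleaving enzymes, had 0.29 (0.203). Among other receptors, Itgb2, the shared chain of the C3 fragment receptors of leukocytes, had 0.47 (0.211) and Cd93 0.37 (0.282). In the terminal pathway C6 had -0.50 (0.691) and C7 -0.20 (0.798), both components of the membrane attack complex. Mean levels of C6 were low, at 0.293 CPM with saline and 0.212 CPM with angiotensin II. Hc, which encodes C5, had 0 counts in 10 of the 11 libraries and 0.381 CPM in AngII 3, the AngII library with the most hepatocyte transcripts. The receptor C5ar1 was measured in all of these libraries, while the transcript of its ligand's precursor was counted in 1 of the 11.

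AngII_FI 3 carried complement transcripts at levels that no other library had. Its C3 was 1386 CPM, or 16.7 times the mean of the other AngII_FI libraries. C4b was at 246 CPM and 14.4 times that mean, and C2 at 17.5 CPM and 19.1 times. C1s1, C1ra and Serping1 had 114, 47.0 and 262 CPM, or 3.88, 3.15 and 2.33 times. Cfp reached 8.72 CPM, 1.51 times, while C3ar1 and C5ar1, the receptors, had 7.22 and 4.72 CPM, 0.808 and 0.791 times the mean of their group. So 7 of the 9 members stood above all 11 other libraries. The share of all genes that did so in AngII_FI 3 was not counted, so this count is a description only.

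Among the 46 other pathway genes 25 were above all 11 other libraries in AngII_FI 3, again without a share over all genes to set beside it. Of the 46, 21 were under 1 CPM in each of the 11. All 7 soluble regulators were in that group of 25, among them Vtn at 398 CPM, Cfi at 120.3 CPM and C4bp at 100.5 CPM, as were 5 of 7 terminal components, with Hc at 87.6 CPM and C9 at 40.3 CPM, and 6 of 8 lectin pathway genes, with Mbl2 at 114 CPM. Cfb had 171 CPM, or 72.8 times the other AngII_FI libraries. The 3 C1q chains were not, at 0.952, 0.789 and 0.902 times. With this library in the fit, AngII_FI against AngII gave log2 fold changes of 2.19 ± 0.81 for C3, 2.00 ± 0.87 for C2 and 1.93 ± 0.77 for C4b, none of which passed (edgeR adjusted p = 0.432, 0.483 and 0.452). C1ra, C1s1 and Serping1 then stood at 0.40, 0.50 and 0.25, above 0 and not below, while C3ar1 had 0.040 and C5ar1 -0.38. Including this 1 library thus turned the direction for these 6 components. The direction of C3 and C4b also turned in some fits of the 11 libraries that left out another single library.

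**Figure D5:**
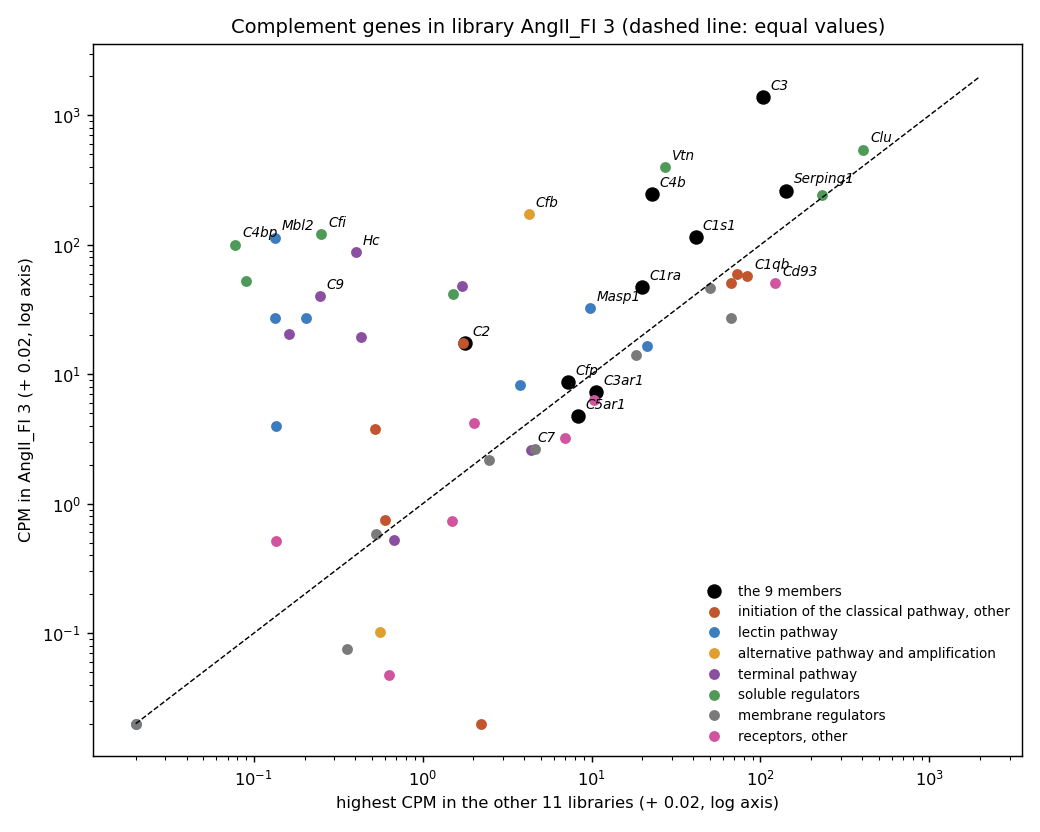
Level of each complement gene in AngII_FI 3 (vertical axis) against its highest level in the other 11 libraries (horizontal axis), both in CPM plus 0.02 on log axes. Colours mark the role of the gene and black the 9 members; the dashed line marks equal values. C3, C4b, C2, Cfb and the soluble regulators lie above the line, and C3ar1, C5ar1 and the C1q chains below it.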

How the data were processed

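Raw counts per gene, with a column for each of the 12 libraries, were deposited by the authors. The submitters' processing notes name GRCm38 and the tools HISAT, featureCounts (1.5.0-p3) and DESeq (1.8.3). One of the labels' protocols names TRIzol for the RNA and another an RNeasy kit; library kit input was 1.3 µg. No source used here gives the strand setting or the annotation release. Multiples of 4 made up 33.9% to 36.6% of the counts between 1 and 40 (25% by chance), for a reason that is not known.

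Groups came from the treatment labels. The 9 members, the pathway lists and the markers were chosen with earlier results of these data known. Other pathway genes are named where called (at most 4 a list), and otherwise by the 2 smallest p of each list in AngII against saline. Of the genes these rules and the likeness of pattern select, 2 are not reported here. edgeR 4.0.16 (R 4.3.3) was used with filterByExpr, TMM scaling and the quasi-likelihood test, in 1 fit of 11 libraries with 3 group means and no covariate, AngII_FI 3 left out. Benjamini-Hochberg adjustment ran over 17702 genes, with a threshold of 0.05. Levels are CPM of the library total, whereas fold changes, SE and 95% intervals come from the scaled fit. The procedure was tested on simulated counts. Alternatives were DESeq2 1.42.0, limma-voom (limma 3.58.1), other scalings and filters, all 12 libraries, 2 groups only, a replicate block, no mitochondrial genes and each library left out; summing near-identical copies was chosen after seeing the data. Positions are from GENCODE M21, which matched 99.5% of gene IDs, and promoters from RefSeq.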

Additional observations from a re-analysis of the deposited data

Results flagged for a closer look

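A screen took 27 groups of 4 libraries (9 members in 3 groups), with AngII_FI 3 included although it was already set apart. The 9 members share the same libraries, so the groups are not independent and the count is a description only. In 7 groups, 1 library had a gap to its nearest neighbour that was too large a share of the group's range by Dixon's criterion. In 6 of them the library was AngII_FI 3, with C1ra at 47.0 CPM, C1s1 at 114 CPM, C2 at 17.5 CPM, C3 at 1386 CPM, C4b at 246 CPM and Serping1 at 262 CPM. The seventh was C3ar1 in saline 4, at 3.92 CPM, below 4.98 to 5.10 CPM in the other saline libraries; without saline 4 the log2 fold change of C3ar1 in AngII against saline was 0.75 and still passed.

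AngII_FI 3 is outside the comparisons, and Cfp there, at 8.72 CPM, was also above all 11 other libraries, as were the 6 genes just named. Its 15 hepatocyte markers summed to 24454 CPM; their part in these levels was not tested.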

How the results depend on the processing

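For AngII against saline, 441 genes were higher and 242 lower, and 4 members were called. DESeq2 called 873 and 576 genes, and 6 members, C1ra and Cfp among them. With all 12 libraries in the fit there were 273 and 115 genes and 1 member, with library totals alone 119 lower and 2 members, with no filter 122 lower and 1 member, and with only the 2 groups compared 1 member. Leaving out single libraries gave 196 to 422 genes higher, 54 to 257 lower and 1 to 4 members. C3ar1 kept its call in all 22 alternatives. The log2 fold change of C4b, C5ar1 and Serping1 stayed above 0 in all of them and lost the call in 13, 14 and 13.

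For AngII_FI against AngII, 0 genes were higher and 1 lower. DESeq2 gave 10 and 19, limma-voom 0 lower, all 12 libraries 0 lower, and the fit of only the 2 groups 1 higher and 0 lower. Single libraries left out gave 0 to 1 higher and 1 to 4 lower. Members called stayed at 0 throughout. With all 12 libraries the direction turned for C1ra (0.40), C1s1 (0.50), C2 (2.00), C3 (2.19), C4b (1.93) and Serping1 (0.25). Cfp turned to -0.065 with library totals alone. With single libraries left out C3 ran from -0.11 to 0.093, C4b from -0.24 to 0.048 and Cfp from -0.079 to 0.12.

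For AngII_FI against saline, 165 genes were higher and 55 lower, and 1 member was called. DESeq2 gave 486 and 318 genes and 3 members, with C4b and Cfp added. Library totals alone gave 94 higher, only the 2 groups compared gave 92 higher and 34 lower, no filter 30 lower and a filter at 1 CPM 83 lower. Single libraries left out gave 37 to 172 higher, 6 to 68 lower and 0 to 1 member. C1s1, at 0.0083, turned to -0.064 with library totals alone and ran from -0.086 to 0.17 with single libraries left out. Apart from fits with fewer samples, the cause of these shifts was not tested.

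Libraries with the same replicate number in their titles showed no shared pattern. The correlations of deviations from the group means ran from -0.0343 to 0.0499 over 10 same-numbered pairs and from -0.0580 to 0.0628 over 30 others. These values cannot settle whether animals or batches were matched by number. A replicate block gave 255 genes higher, 85 lower and 1 member in AngII against saline, 1 gene higher in AngII_FI against AngII, and 20 lower in AngII_FI against saline, where C1s1 stood at -0.056. Summing near-identical copies, chosen after seeing the data, changed no call of a member. The fit had 3 or 4 libraries a group and a common coefficient of variation of 0.269 over all genes tested. The calls of C4b, C5ar1 and Serping1 lay near the threshold, while that of C3ar1 in AngII against saline held in all 22 alternatives.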

Other observations

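C1rb, the near-identical copy of C1ra, was counted in an uneven way over the libraries. It had 10 counts in saline 1, 89 in AngII 1, 136 in AngII_FI 2 and 161 in AngII_FI 4, and 0 counts in the other 8 libraries, where C1ra was measured throughout. Sums of C1ra and C1rb were 705 to 1243 counts with saline, 1154 to 1476 with angiotensin II and 941 to 1302 in the 3 AngII_FI libraries compared. C4a, the copy of C4b, had 0 to 35 counts in the 11 libraries and 273 in AngII_FI 3. AngII 3 held 0.409 CPM of C8a, 0.141 CPM of C8b and 0.226 CPM of C9.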
